A study of Drosophila melanogaster with 3 samples.

Results

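The 10 genes described here encode core subunits of the Polycomb group in Drosophila melanogaster: ph-p, ph-d, Pc, Psc, Su(z)2 and Sce of Polycomb repressive complex 1 (PRC1), E(z), esc and Su(z)12 of Polycomb repressive complex 2 (PRC2), and pho, which encodes a DNA-binding protein. They are 10 of 13945 protein-coding genes on the main chromosome arms, and they were chosen by the signal of a peak at ph-p, which was among the 10 highest of the series. That peak is therefore given as a description and is not offered as support for anything. The data are ChIP-seq peak lists from whole embryos of both sexes, aged 0 to 16 hours, in 3 biological replicates that form 1 group. The strain, Esplmgamma-HLH-GFP, is a transgenic line with a stable C-terminal fusion of GFP to E(spl)mgamma-HLH, and an antibody against GFP was used on chromatin sonicated to 200 to 800 bp. The promoter that drives the tagged protein is not given in the labels, and whole embryos mix all cell types of those hours. A control is named in the labels and was not analysed here, and with 1 group no contrast between conditions was possible.

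Polycomb group proteins keep developmental genes silent after the factors that first repressed them are gone. PRC2 methylates lysine 27 of histone H3 through its catalytic subunit E(z), and PRC1 binds that mark through the chromodomain of Pc, ubiquitinates histone H2A through Sce and compacts chromatin. Both are brought to DNA at Polycomb response elements, to which Pho and other sequence-specific proteins bind. E(spl)mgamma-HLH is a basic helix-loop-helix repressor related to Hairy, and its gene is one of those in the Enhancer of split complex that respond to Notch signalling.

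A gene's territory was taken as its body with 1 kb upstream, and a peak belonged to it when its summit lay there. The reproducible set, which the authors derived by comparing the peaks of the 3 replicates and their pool, held 4524 peaks in the dm6 build. It consisted of the 4524 pooled peaks of highest signal, and its lowest signal was 114.4. The replicate lists held 23367, 30000 and 24251 peaks with background regions included, of which 5411, 12953 and 7087 passed a q-value of 0.05. Peaks were ranked by the authors' signal within each list, with 1 the highest, and signals were also expressed as a percent of the list's highest peak. Replicates are set side by side on that percent, which rests on the single highest peak of each list. Read counts are not part of these lists. The depth of each replicate is therefore unknown, and it cannot be said how far it limits the weak peaks. The q-value is capped at the same lowest value for many peaks of a list, and it therefore separates weak peaks only.

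Of the 10 genes, 6 had a reproducible peak in their territory, beside 26.4% of all protein-coding genes. They were ph-p and ph-d, which encode the polyhomeotic subunits of PRC1, and Psc, a further PRC1 subunit. The other 3 were E(z), esc and Su(z)12, which are the PRC2 genes among the 10. Pc, Su(z)2, Sce and pho had none. ph-p is in this count by the choice of the genes, and 5 of the other 9 had a peak. A reproducible summit within 500 bp of one of the gene's own transcription start sites (TSSs) was found at 4 of the 10, which were ph-p, E(z), esc and Su(z)12, beside 20.2% of all genes, and ph-p is again there by choice. Genes with long territories more often had a peak, and 8 of the 10 genes were among the 4648 genes with the longest territories, of 4534 bp or more. Of these 8, 5 had a reproducible peak, beside 42.0% of the 4648. Among the 4648 genes of middle length esc had one and Sce had none, beside 24.2%, and none of the 10 was among the 4649 shortest, of which 13.0% had one. The 10 territories together covered 89.75 kb and held 11 reproducible peaks, or 0.1226 per kb, beside 0.04823 per kb over all genes. This density includes the peak that chose the genes and the 4 others of ph-p. The other 9 genes held 6 peaks in 76.59 kb, or 0.07834 per kb, and 2 of the 6 belonged to ph-d.

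The counts were also taken in each replicate alone, over its 4524 highest peaks. In replicate 1 the same 6 genes had a peak in their territory, beside 26.7% of all genes, and in replicate 2 the same 6, beside 25.0%. In replicate 3 esc dropped out and 5 remained, beside 26.5%. Promoter peaks were found at 4 genes in replicate 1, beside 20.5%, at 4 in replicate 2, beside 19.1%, and at 3 in replicate 3, beside 20.4%. Peaks shared by the remaining pair when 1 replicate was left out gave 5, 5 and 6 genes without replicates 1, 2 and 3, beside 21.6%, 23.4% and 21.4%. For promoters the same gave 3, 3 and 4 genes, beside 16.3%, 18.1% and 16.1%. With the 2262 highest reproducible peaks, 5 genes kept a peak, beside 16.2%, and 3 a promoter peak, beside 12.2%.

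How much sequence is assigned to a gene changed which of the 10 were counted. Gene bodies alone left ph-p, Psc, E(z) and Su(z)12, so 4 genes beside 11.3%, and 500 bp upstream left all but ph-d of the 6, so 5 beside 24.9%. With 2 kb upstream the same 6 were found beside 29.2%. Counting each peak for the gene with the nearest TSS gave the same 6 beside 22.0%. Within 1 kb of the gene's own TSS there were 5, without Psc, beside 23.1%. Within 200 bp the promoter count was 4, beside 14.3%, and in the pooled list at a q-value below 0.05 it was 6, with ph-d and Psc added, beside 29.9%.

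**Figure D1:**
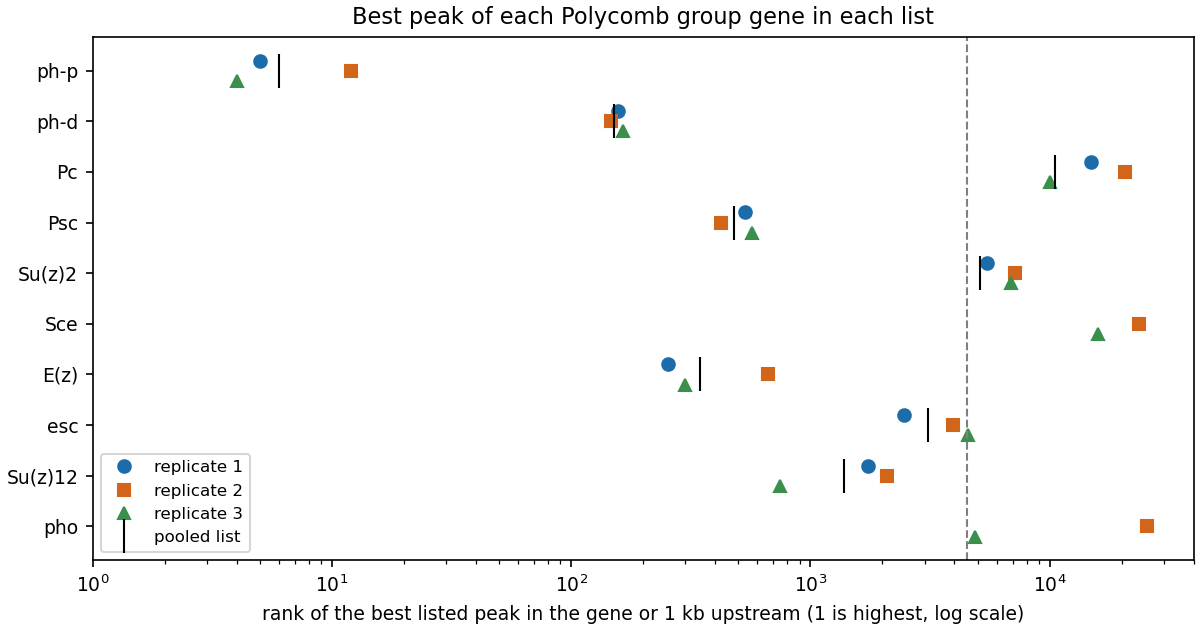
Rank of the best peak of each of the 10 Polycomb group genes in the lists, with the rank on a log axis and the highest peak at 1. The best peak of ph-p ranked 5, 12 and 4 in replicates 1 to 3, and Sce and pho had no listed peak in replicate 1.

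The ph locus lies on chromosome X, where ph-d (FBgn0004860, X:2115727-2123286) and ph-p (FBgn0004861, X:2126210-2138371) are both transcribed on the minus strand with 2923 bp between them. From the 3′ end of ph-d to the first ph-p TSS the locus spanned 22.64 kb and held 7 reproducible peaks. The territory of ph-p held 5 of them within 13162 bp. Having 5 or more reproducible peaks was rare: 0.688% of genes did, which was 96 genes with a median territory of 48.93 kb. Of those 96, 4 had a territory no longer than that of ph-p, itself included, among 12297 genes that short. Another of the 4 was Kdm2, a related Polycomb gene taken up below, with 6 peaks in 11751 bp. The ph-p count includes the peak that chose the genes. The territory of ph-d held the other 2 peaks, and 6.36% of genes had 2 or more.

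The highest ph-p peak, chrX:2137176-2137564, ranked 6 in the reproducible set with a signal of 2297, which was 55.8% of the highest peak of that list. Its neighbours in rank were Chro just above, at 2316, and CG11050 just below, at 2263. The next peak of the 10 genes was ranked 92, outside the 10 highest. The rank 6 summit lay in an intron, 1041 bp downstream of the first ph-p TSS and 475 bp upstream of the next. The replicates gave it ranks of 5, 12 and 4 and signals of 57.3%, 47.06% and 61.68% of their own highest peak, a mean of 55.3% ± 7.50 (SD, n = 3). Replicate 2 was the lowest and replicate 3 the highest, and the 3 replicate summits lay within 15 bp of the reproducible one.

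The second ph-p peak, chrX:2137673-2138106, ranked 92 and lay 428 bp downstream of the first TSS, in a noncoding part of the first exon. Its ranks were 80, 102 and 97, and its signals were 23.78%, 23.34% and 20.36% of the highest peak (mean 22.5% ± 1.86, SD, n = 3). It was lower than the rank 6 peak in every replicate. The genes were chosen by the signal of the rank 6 peak, so this order is only a description. The peak ranked 3418 had its summit 8 bp downstream of an internal ph-p TSS, where replicate signals were 3.942%, 4.616% and 3.287%. The other 2 were intronic and further into the gene, 3042 and 3940 bp from the first TSS. The nearer, ranked 1322, had 5.73%, 7.868% and 6.551% of the highest signal. The farther, ranked 1837, had 4.868%, 6.557% and 4.393%. All 5 ph-p peaks were thus among the 4524 highest of every replicate, and the pair ranked 6 and 92 stood above the other 3 in each.

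**Figure D2:**
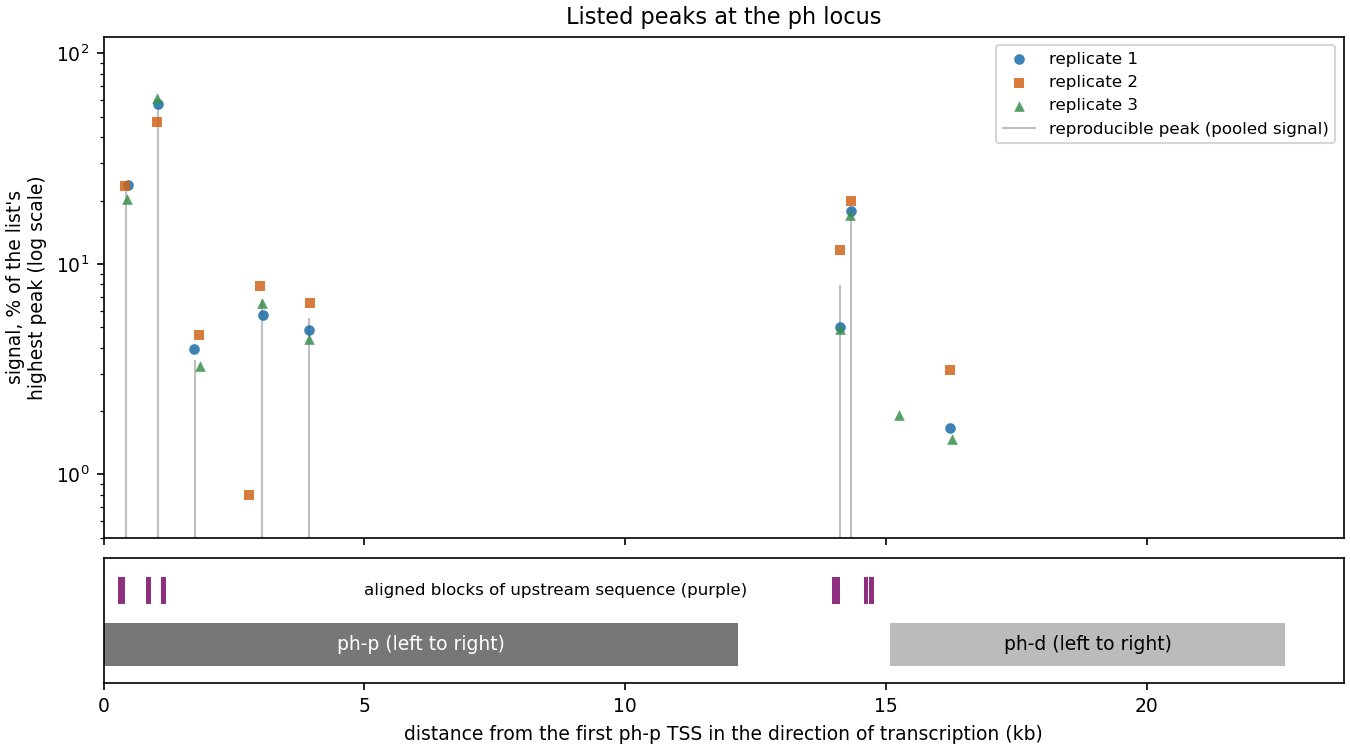
Peaks listed at the ph-d and ph-p locus, with the signal as a percent of the list's highest peak on a log axis and the distance from the first ph-p TSS in kb on the other. Points are the replicates, and lines mark the reproducible peaks. Of the 7 reproducible peaks, 5 belong to ph-p and 2 lie upstream of ph-d. The ph-p peak of rank 6, by whose signal the genes were chosen, is the highest of them in all 3 replicates.

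Both ph-d peaks lay upstream of the gene and not at its TSS. The stronger, chrX:2123895-2124197, ranked 151 with its summit 764 bp upstream. Its ranks were 157, 146 and 164 and its signals 17.77%, 19.97% and 16.99% of the highest peak (mean 18.2% ± 1.55, SD, n = 3), with summits within 6 bp. The weaker, chrX:2124129-2124392, ranked 1002 with its summit 966 bp upstream, 202 bp from the first. Its signals were 5.042%, 11.59% and 4.933% (mean 7.19% ± 3.81, SD, n = 3), so replicate 2 stood apart from the other 2. The peaks overlap each other, and the smallest gap between neighbouring summits elsewhere in the locus was 613 bp. Among all reproducible peaks 18.2% had another summit within 1 kb. Near the ph-d TSSs only weak peaks were listed. The best in the pooled list ranked 5989 and lay 408 bp upstream of an internal TSS. It ranked 10237, 4650 and 9147 in the replicates, of which only replicate 2 gave it a q-value below 0.05. Replicate 3 also listed a peak 168 bp downstream of the first ph-d TSS, at rank 6322 with a −log10 q-value of 1.7, which passed 0.05.

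ph-p and ph-d are tandem copies, and the sources used here do not say how reads that match both were placed, so the letters under the peaks were compared. The longest alignment of their coding sequences covered 4297 bp at 91.6% identity. Under the peaks the copies were less alike. Sequences of 32 bp that occur once on the main arms made up all of 10 of the 11 peaks and 340 of 358 positions (94.97%) of the ph-p peak of rank 6. The rank 6 peak consisted mainly of a 208-bp stretch between a pair of flanks that each have a copy upstream of ph-d. In ph-d those flank copies are separated by 15 bp. The stretch, chrX:2137265-2137472, held the reproducible summit and all 3 replicate summits. It is shown because the highest peak of the 10 genes rests on it, in dm6 on the minus strand, 5′ to 3′, with the 21 bases around the reproducible summit in capitals.
ph-p stretch between the flanks: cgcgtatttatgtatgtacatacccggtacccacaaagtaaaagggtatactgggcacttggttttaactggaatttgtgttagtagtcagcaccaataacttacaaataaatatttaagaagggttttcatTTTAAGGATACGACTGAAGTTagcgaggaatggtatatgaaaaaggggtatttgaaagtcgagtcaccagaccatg

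The flanks are shown because they are the part of the peak that aligned to ph-d. In each pair, on the minus strand of dm6, capitals mark bases that differ or have no partner. The first pair, chrX:2137176-2137264 of ph-p and chrX:2123605-2123696 of ph-d, had 82 identical bases, 6 mismatches and 5 gap positions. The second pair, chrX:2137473-2137559 and chrX:2123712-2123795, had 75 identical bases, 7 mismatches and 7 gap positions.
ph-p first flank: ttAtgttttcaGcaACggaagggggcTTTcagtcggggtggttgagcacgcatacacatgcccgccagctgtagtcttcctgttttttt
ph-d copy of the first flank: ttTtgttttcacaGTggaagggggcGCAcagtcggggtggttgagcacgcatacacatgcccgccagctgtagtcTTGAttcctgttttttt
ph-p second flank: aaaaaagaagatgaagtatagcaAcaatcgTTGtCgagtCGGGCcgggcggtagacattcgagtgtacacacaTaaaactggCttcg
ph-d copy of the second flank: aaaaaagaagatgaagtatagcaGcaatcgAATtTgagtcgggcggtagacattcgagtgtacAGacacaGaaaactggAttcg

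No peak of the reproducible set or of any replicate touched the ph-d copies of these flanks. A search with relaxed settings found 1 further match of the 208-bp stretch to the ph-d side, 15 bp long and not at the summit. Of the second ph-p peak, 141 aligned positions, at 84.4% identity, matched chrX:2124262-2124399 upstream of ph-d. That copy begins 10 bp from the summit of the ph-d peak ranked 1002, was touched by 1 reproducible peak and 3 replicate peaks, and held 1 replicate summit. The summit of the ph-d peak ranked 151 lay in a 466-bp stretch between the copied blocks, part of which, with that summit in it, aligned at 71.4% identity over 203 positions to chrX:2137654-2137855, which lies mostly in the ph-p peak of rank 92. The windows around both ph-d summits are shown because they carry the upstream peaks of ph-d, chrX:2124000-2124100 and chrX:2124202-2124302 on the minus strand, with the hexamer CANNTG in capitals where it occurs.
ph-d rank 151: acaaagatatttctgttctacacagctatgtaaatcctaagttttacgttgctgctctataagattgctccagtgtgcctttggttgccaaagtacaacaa
ph-d rank 1002: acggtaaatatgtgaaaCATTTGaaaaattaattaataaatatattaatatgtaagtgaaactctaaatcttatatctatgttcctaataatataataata

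The windows of the 2 intronic ph-p peaks, chrX:2135279-2135379 and chrX:2134381-2134481, are shown for comparison, again on the minus strand with CANNTG in capitals.
ph-p rank 1322: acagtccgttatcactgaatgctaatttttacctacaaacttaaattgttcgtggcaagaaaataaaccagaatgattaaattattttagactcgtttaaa
ph-p rank 1837: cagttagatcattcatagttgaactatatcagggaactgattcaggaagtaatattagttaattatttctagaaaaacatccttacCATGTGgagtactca

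Psc (FBgn0005624, 2R:12965997-12980994), a PRC1 subunit related to the vertebrate Bmi1 protein, had 1 reproducible peak, chr2R:12975486-12975698. It ranked 478, and its summit lay in an intron 5387 bp downstream of the first TSS. Replicate ranks were 531, 423 and 571 and signals 10.99%, 12.67% and 9.964% of the highest peak (mean 11.2% ± 1.37, SD, n = 3). At the Psc TSS only weak peaks were listed, the best at pooled rank 7398, in a noncoding part of an exon 307 bp downstream of the first TSS. Su(z)2 (FBgn0265623, 2R:12996501-13007911), a paralogue of Psc beside it on the other strand, had no reproducible peak. Its best pooled peak ranked 5135 with a signal of 103.0, just under the limit of 114.4, and was intronic, 8945 bp downstream of the first TSS. Its best replicate ranks were 5456, 7143 and 6880. Above that limit, the lowest of the 11 reproducible peaks was that of ph-p ranked 3418, with a signal of 144.4. In the pooled list at a q-value below 0.05, Su(z)2 joined the other 6, which made 7 of the 10 genes beside 37.9% of all genes. Between Psc and Su(z)2 lie 15506 bp, and 2 reproducible peaks fell there, outside both territories. The stronger ranked 102 and lay 4180 bp upstream of Psc, with replicate ranks of 186, 88 and 96. The weaker ranked 2477 and lay nearest to CG33798, and its replicate ranks of 1277, 16115 and 1789 set replicate 2 apart.

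Pc (FBgn0003042, 3L:21306138-21318020), whose chromodomain protein gives the group its name, had a peak near its TSS in every replicate list, but a weak one. It ranked 10504 in the pooled list with the summit 59 bp upstream, and 14949, 20557 and 9981 in the replicates, and none of these passed a q-value of 0.05. A reproducible peak ranked 185 lay 1556 bp beyond the 3′ end of Pc, with the TSS of CG11309 76 bp from its summit. Sce (FBgn0003330, 3R:27680431-27682029), which encodes the ubiquitin ligase of PRC1, had no listed peak in the pooled list or replicate 1. Its best ranks were 23649 in replicate 2 and 15943 in replicate 3, with −log10 q-values of 0.399 and 0.18. Without read counts, these lists set no upper limit on binding at Sce or Pc.

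E(z) (FBgn0000629, 3L:10634575-10638130), the histone methyltransferase of PRC2, had the strongest peak of the PRC2 genes described here, chr3L:10637834-10638214 at rank 347. Its summit lay 42 bp downstream of the TSS, in the noncoding part of the first exon. The replicates gave ranks of 253, 666 and 299 and signals of 15.07%, 10.27% and 13.14% of the highest peak (mean 12.8% ± 2.42, SD, n = 3). Replicate 2 was the lowest. The TSS of the neighbouring gene Cnep1r2 lies 58 bp from the summit, so the peak cannot be assigned to one of the pair by position.

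Su(z)12 (FBgn0020887, 3L:19918242-19923462), which encodes a zinc-finger subunit that PRC2 needs for its activity, had a peak at rank 1383, chr3L:19923226-19923609. Its summit lay 44 bp downstream of the TSS. Replicate signals were 5.677%, 5.43% and 8.705% (mean 6.60% ± 1.82, SD, n = 3), with ranks of 1738, 2079 and 743, and replicate 3 was the highest. The TSS of Pfdn6 was 253 bp away.

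The peak of esc (FBgn0000588, 2L:11827204-11829405), the WD-repeat subunit of PRC2, was the weakest of the promoter peaks of these PRC2 genes. It ranked 3097, chr2L:11829252-11829635, with the summit 39 bp upstream of the TSS. Its ranks were 2467, 3936 and 4541 and its signals 4.416%, 3.533% and 2.527% (mean 3.49% ± 0.945, SD, n = 3). The rank in replicate 3 was just outside the 4524 highest peaks of that list, and esc dropped out of the 6 genes when replicate 1 or replicate 2 was left out, which leaves 5. Its promoter upstream of the TSS, chr2L:11829406-11829494 on the minus strand of dm6, is shown because the esc summit was the only one of the 11 with a CANNTG hexamer in a 51-bp window, beside 18.9% of all reproducible peaks. Capitals mark the hexamer.
esc rank 3097: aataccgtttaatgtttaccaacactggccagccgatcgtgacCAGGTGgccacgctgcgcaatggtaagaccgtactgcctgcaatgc

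Across the mean signals of these 3 PRC2 promoters the order was E(z), Su(z)12 and esc. The replicate values of the 3 genes did not overlap. The lowest value of E(z), 10.27%, was above the highest of Su(z)12, 8.705%. The lowest of Su(z)12, 5.43%, was above the highest of esc, 4.416%. How often 3 reproducible peaks separate in this way was not counted, and the order was not tested. By position, the E(z) peak cannot be assigned to E(z) over Cnep1r2, and the TSS of Pfdn6 lay 253 bp from the Su(z)12 summit.

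pho (FBgn0002521, 4:1172469-1181628), which encodes the zinc-finger protein that recognises Polycomb response elements, had no reproducible peak. Replicate 3 listed a peak 160 bp upstream of its TSS at rank 4858, with a −log10 q-value of 2.81, and replicate 2 listed one 227 bp upstream at rank 25386 with 0.344. The pooled list and replicate 1 had none. pho is the only one of the 10 genes on chromosome 4, where 9 of 80 protein-coding genes (11.2%) had a reproducible peak and 13 reproducible peaks were listed in all. On the other arms the share was between 24.2% and 27.9%. The nearest reproducible peak to pho was 59114 bp from its territory.

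**Figure D3:**
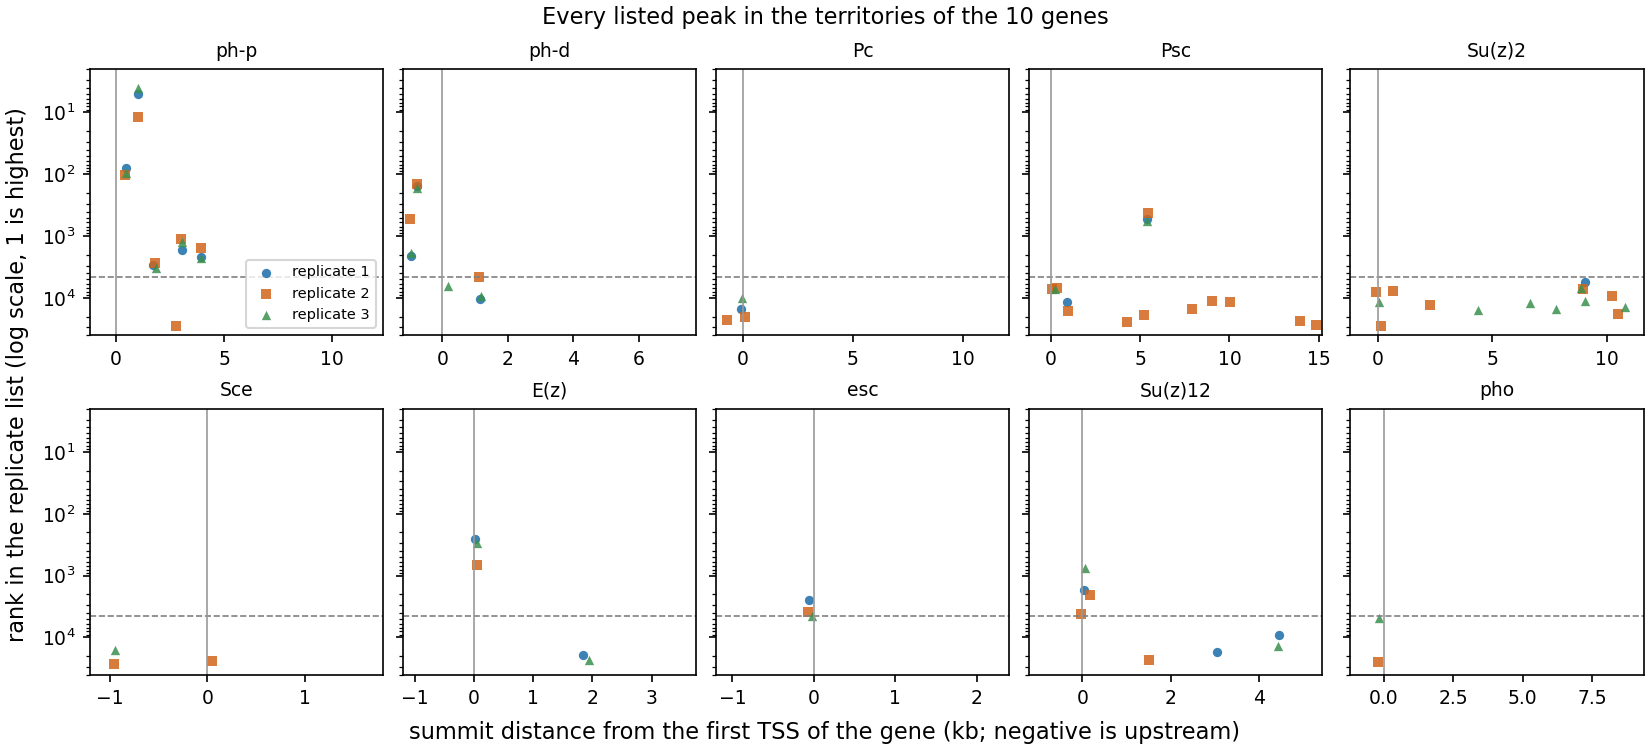
All replicate peaks listed in the territory of each of the 10 genes, by distance of the summit from the first TSS in kb and by rank in the replicate's list, with the dashed line at rank 4524. There were 18, 37 and 26 peaks in replicates 1 to 3, of which 11, 21 and 15 passed a q-value of 0.05.

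All 11 reproducible peaks of the 10 genes were listed in each replicate (100%, exact Clopper-Pearson 95% interval 71.5% to 100%, counting error only). Among all 4524 reproducible peaks, 4360 (96.4%) were. The summit lay in one of the 4524 highest peaks of every replicate for 10 of the 11 (90.9%, interval 58.7% to 99.8%), the exception being esc, beside 3097 of 4524 (68.5%) over the set. The reproducible set was derived from these same replicate lists, so the shares describe the set and do not test it. Of the 11 peaks, 7 lie at the ph locus, among them the peak that chose the genes. The 11 are therefore not independent, and the intervals take no account of this.

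Windows reaching 50 bp to either side of the 11 summits were searched on both strands for 7 motifs. Repressors of the bHLH-Orange class are known to bind the E-box, hexamer CACGTG, and the class C site, hexamer CACGCG. The N-box was searched as CACNAG, and E-boxes of every kind, the first hexamer included, as CANNTG. The letters GAGAG are bound by GAGA factor, while the core of the Pho site was searched as GCCAT and the DREF site as TATCGATA. CANNTG was the only one found, at 5 of the 11 (45.5%), beside 35.1% of the windows of all 4524 reproducible peaks. The 5 were the ph-p peak ranked 1837, the ph-d peak ranked 1002, and the Psc, esc and Su(z)12 peaks. The other letters were in 0 of 11, beside 0.818% for CACGTG, 1.17% for CACGCG, 10.5% for CACNAG, 9.86% for GAGAG, 14.4% for GCCAT and 1.95% for TATCGATA. These shares are low enough that 0 of 11 says little. In windows reaching 100 bp to either side 7 of the 11 held CANNTG, beside 59.7% of all, and 2 held CACNAG, beside 20.4%. The 2 were the ph-p peaks ranked 6 and 3418, which also held CANNTG. The mean GC content of the 11 windows was 34.0% (SD 12), beside 34.7% (SD 8.81) over all 4524. Individual windows ranged from 16.8% at the ph-d peak ranked 1002 to 55.4% at the ph-p peak ranked 3418.

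Lists of related genes gave shares on both sides of the 6 of 10. Of 18 other Polycomb group subunits and associated factors, 7 (38.9%) had a reproducible peak. The highest-ranked were Kdm2 at 505 with 6 peaks, Sfmbt at 721, jing at 1221 and caly at 1696. The caly summit lay nearer to the TSS of CG42837 than to that of caly. The jing summit was intronic, 35810 bp from the nearest jing TSS. Sfmbt encodes the partner of Pho in the PhoRC complex, and its peak lay 88 bp upstream of the TSS with replicate ranks of 712, 1663 and 476. Of 8 DNA-binding proteins tied to Polycomb response elements, 5 (62.5%) had one. They were led by Trl, which encodes GAGA factor and ranked 58 with 5 peaks, Dsp1 at 508, grh at 866 and lolal at 884. The Dsp1 summit lay slightly nearer to the TSS of CG9921 than to its own, and the Trl summit was as near to that of CG42507. Of 22 trithorax group genes, whose products oppose Polycomb silencing, 11 had one, led by osa at 51, trx at 103, brm at 106 and tara at 150. osa and brm encode subunits of the Brahma chromatin remodelling complex, and trx encodes a histone H3 lysine 4 methyltransferase. The territory counts of all 4 lists stand beside the 26.4% of all genes and 42.0% of the 4648 longest. The median territories of the 4 lists were between 6.616 and 9.36 kb. No test was made of the lists.

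**Figure D4:**
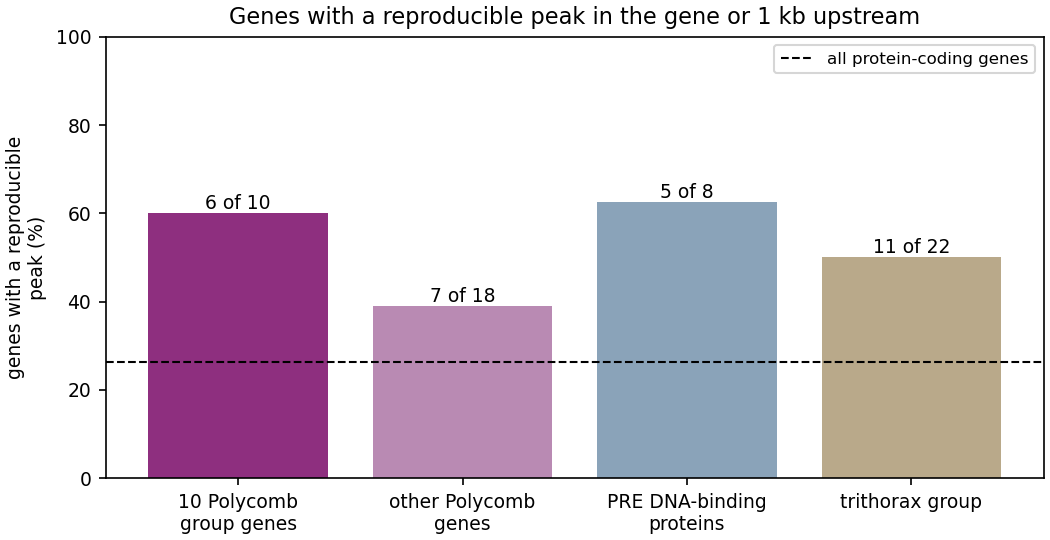
Share of genes with a reproducible peak in the 10 Polycomb group genes and the 3 other lists, beside the share over all protein-coding genes. ph-p is among the 10 by choice. The counts are 6 of 10, 7 of 18, 5 of 8 and 11 of 22, with 26.4% over all genes.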

How the data were processed

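ChIP-seq peaks were analysed in 3 biological replicates of 1 group, and the 10 genes and the 3 other gene lists were chosen with earlier results of these data known. Per the deposited text records, the authors called peaks on each replicate and on the pooled alignments, each against a control, and derived the reproducible set in dm6 from the pooled and replicate lists. For the aligner, the peak caller and the IDR (irreproducible discovery rate) cutoff, the sources used here give neither names nor settings. The deposited signal (column 7) is the authors' own value per peak, which is not normalized between lists, so peaks were ranked within a list. To set replicates side by side, signals were divided by the highest signal of their list, and means and SDs of these percents rest on that single peak. The deposited q-values (column 9) are on the −log10 scale, and column 10 gives the summit offset. The replicate 2 list ends at exactly 30000 peaks, a round length, and what set it is not given. The dm3 lists were not used here.

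From these files, summits were assigned to genes of Ensembl release 115 (BDGP assembly 6.54) on the arms X, 2L, 2R, 3L, 3R and 4, with 1 kb upstream for territories and 500 bp for promoters. Sequence came from the RefSeq genome of the same assembly. The 32-mer uniqueness and motif counts were made in Python 3.11.15 with numpy 2.4.6 and pandas 2.3.3, and peaks and coding sequences were compared with blastn 2.17.0 at an e-value of 1e-05 (relaxed search: 0.01, word size 7). Coding sequences stand in for the planned protein comparison of ph-p and ph-d. Intervals are exact binomial (scipy 1.17.1). Assignment was checked on simulated peaks. No test was made, since there is 1 group. All 10 genes are named, with the 4 genes of each other list that have the highest-ranked reproducible peak. Alternatives were the peak list, territory, promoter distance, overlap rule and window width, and leaving out each replicate.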

Additional observations from a re-analysis of the deposited data

How the results depend on the processing

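Of 89 alternative values, 80 stayed within 1.5 times the reported one. Some of the 80 could not differ. The 4524 highest pooled peaks are the reproducible set itself, and a motif count of 0 cannot fall in a narrower window. The tally is therefore not a measure of how stable the results are. The count of the 10 genes with a reproducible peak, 6 as reported, was between 4 (gene body alone, which drops ph-d and esc) and 7 (pooled list, q-value below 0.05), and 5 to 6 with 1 replicate left out. The promoter count, 4 as reported, was 3 to 4 with 1 replicate left out. The motif counts moved with the window: CANNTG fell from 5 to 1 peak in 51-bp windows (18.9% of all reproducible peaks). In windows reaching 100 bp to either side, CACGCG and GAGAG went from 0 to 1 peak each, beside 2.76% and 22.0% of all, and CACNAG and GCCAT from 0 to 2, beside 20.4% and 26.2%. For the other lists, gene bodies alone gave 2 in place of 7 other Polycomb genes and 7 in place of 11 trithorax group genes, and a limit of 1 kb from the gene's own TSS gave 6 trithorax group genes. The pooled list at a q-value below 0.05 gave 8 in place of 5 DNA-binding genes. A narrower territory or window can only lose peaks and a wider or longer one can only add them. No paired analysis was possible because the 3 replicates form 1 group. Depth is unknown, so weak or unlisted peaks at Pc, Sce and pho set no limit on binding there.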
